A study of Mus musculus with 12 samples.

Results

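The genes described here are Nrxn2, Nrxn3, Nlgn1 and Nlgn3, neurexins and neuroligins of the mouse medial prefrontal cortex (mPFC), a frontal area linked to how unpleasant pain is felt. They were taken by gene name, with no threshold on a measured value, although earlier results of these data were known, and are 4 of the 34745 genes in the count table. All mice were WT males, and the tissue was taken on day 28. The 3 groups of 4 libraries came from the right mPFC, contralateral to a chronic constriction injury (CCI) of the sciatic nerve, from the left mPFC, ipsilateral to it, and from naive mice that were habituated and not operated. CCI is a model of neuropathic pain in which the nerve is loosely tied. The labels give no age, no sham operation and no hemisphere for the naive libraries, so the operation and the nerve injury cannot be told apart. A shared number in the library codes was read as 1 CCI mouse sampled on both sides, which the labels do not state outright.

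Neurexins are presynaptic membrane proteins that bind partners across the synaptic cleft, among them the neuroligins of the postsynaptic membrane. Nrxn2 and Nrxn3 encode neurexins, each made in a long alpha and a short beta form from separate promoters and spliced into many variants. Nlgn1 encodes the neuroligin of excitatory synapses, whereas the Nlgn3 protein is found at excitatory and inhibitory synapses, and Nlgn2 encodes the neuroligin of inhibitory synapses. In the cortex these proteins help to specify and stabilise synapses, and they bind intracellular scaffolds through their tails.

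The 12 libraries held between 16.1 and 20.6 M counts (mega-counts). Of the genes in the table, 11491 had no count in any library and 15808 passed the filter on low counts, the members among them. Cortical neuron markers were present in all libraries: Slc17a7, the vesicular glutamate transporter of cortical excitatory neurons, lay between 1658 and 2003 CPM (counts scaled to the depth of the library), and Gad1, a GABA-synthesising enzyme, between 309 and 419 CPM. Libraries differed in marker genes of other cells and of adjacent tissue, scored as a list's mean log2 CPM after subtracting each gene's own mean. The striatal list, which includes Drd1 and Drd2, scored 1.399 in contralateral 1 and between -0.31 and -0.01 in the other 11 libraries. The myelin list, which includes Mbp, ranged from -0.46 to 0.69 in contralateral, from -0.43 to 0.50 in ipsilateral and from -0.37 to 0.07 in naive libraries.

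The lowest counts in a library were 4206 for Nrxn2, 3289 for Nrxn3, 744 for Nlgn1 and 1951 for Nlgn3. Counting error alone was 1.29 to 1.54% for Nrxn2, 1.397 to 1.74% for Nrxn3, 2.77 to 3.67% for Nlgn1 and 1.84 to 2.26% for Nlgn3. The spread between libraries beyond counting error, given as edgeR's biological coefficient of variation, was 8.83% for Nrxn2, 10.4% for Nrxn3, 14.0% for Nlgn1 and 8.14% for Nlgn3, against a median of 10.8% over all genes tested. Nlgn1 had the fewest counts of the members and varied most among libraries. Counts were per gene, so the alpha, beta and splice forms of a member are pooled in its value.

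On the GRCm38/mm10 build, Nrxn2 (ENSMUSG00000033768) lies on the plus strand of chromosome 19 from 6418731 to 6544169, and Nrxn3 (ENSMUSG00000066392) on the plus strand of chromosome 12 from 88722876 to 90334935. Nlgn1 (ENSMUSG00000063887) lies on the minus strand of chromosome 3 from 25426215 to 26332460, and Nlgn3 (ENSMUSG00000031302) on the plus strand of the X chromosome from 101299168 to 101325963. Nrxn3 and Nlgn1 are long genes, spanning 1612 and 906 kb, whereas Nrxn2 spans 125 kb and Nlgn3 26.8 kb. GENCODE M21 annotates 18 transcripts of Nrxn2, 9 of them coding, 13 of Nrxn3 with 5 coding, 5 of Nlgn1 with 4 coding and 6 of Nlgn3 with 4 coding. Genes that overlap the members had few counts where the table lists them, at most 64 for Gm14964 (antisense to Nrxn2), 34 for A830092H15Rik (antisense to Nlgn1) and 51 for Gm21986 (same strand as Nlgn3). Whether the counting used strand is not given in the sources used here, so reads of antisense partners cannot be told apart.

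Levels were compared between genes per length, in the authors' FPKM (fragments scaled by gene length in kilobases and by library depth). Nrxn2 stood highest of the members at 14.2 ± 1.0 FPKM, ahead of Nlgn3 at 12.2 ± 0.66, Nrxn3 at 10.3 ± 1.0 and Nlgn1 at 3.05 ± 0.45 FPKM (SD, n = 12 libraries). Nlgn2 stood above all of them, at 40.7 ± 3.0 FPKM. Nrxn2 exceeded Nlgn3 in 12 of 12 libraries and Nlgn3 exceeded Nrxn3 in 11 of 12, although the ranges of these neighbours over all libraries overlapped. Among all genes of the table, mean FPKM placed Nrxn2 at percentile 91.6, Nlgn3 at 90.4, Nrxn3 at 88.6 and Nlgn1 at 75.1.

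The order of the middle members depended on gene length. The length behind the FPKM equalled the sum of all distinct annotated exons in 3 of the 4 members, so that overlapping exons counted more than once, and was 21012 bases against a sum of 23232 for Nrxn2. With the length of the merged exons instead, an alternative chosen after seeing the data, the levels were 21.5 for Nrxn2, 18.0 for Nrxn3, 14.5 for Nlgn3 and 4.42 for Nlgn1, on the same scale of fragments per length and depth. On that scale Nrxn3 exceeded Nlgn3 in 11 of 12 libraries, the opposite of the order in FPKM, while Nrxn2 remained the highest and Nlgn1 the lowest of the members. Comparisons of 1 gene between groups do not depend on this length.

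**Figure D1:**
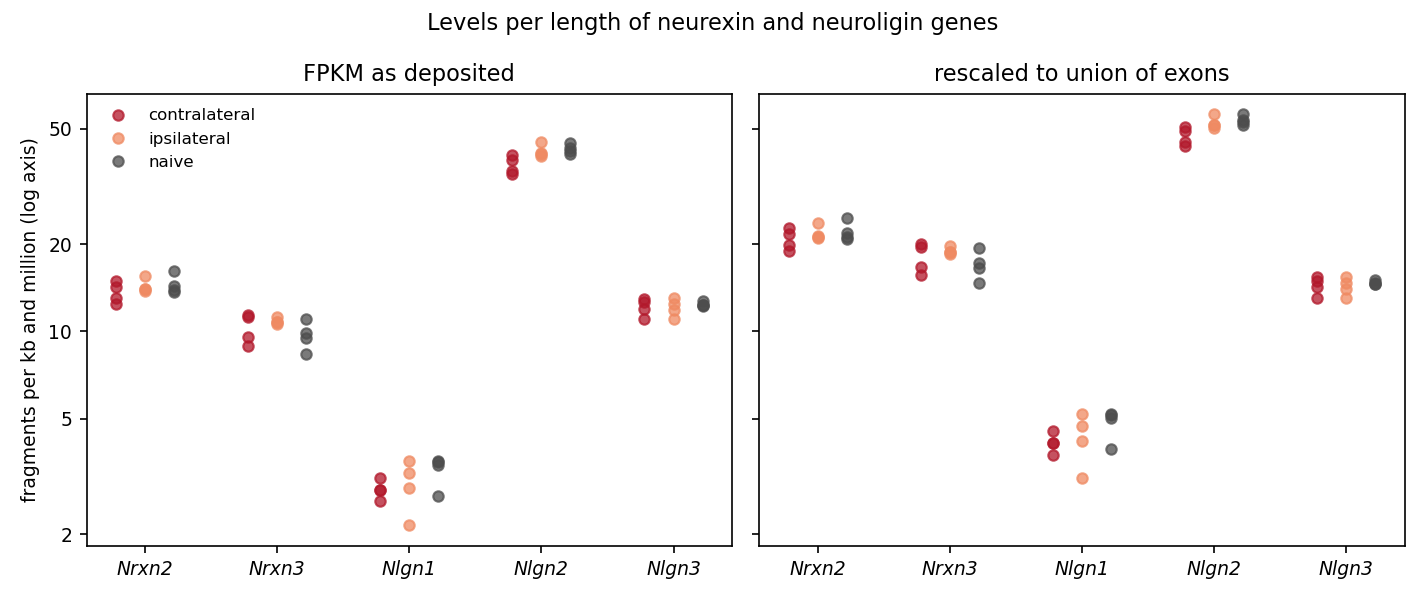
Levels per length of Nrxn2, Nrxn3, Nlgn1, Nlgn2 and Nlgn3, in fragments per length and depth on a log axis, with 1 point per library in contralateral, ipsilateral and naive groups. Nlgn3 lies above Nrxn3 in the deposited FPKM (left, means 12.2 and 10.3) and below it after rescaling to merged exon length (right, means 14.5 and 18.0), while Nlgn1 is lowest in both.

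The plot of levels per length shows Nrxn2 and Nrxn3 closer together than the neuroligin genes. Of the summed FPKM of Nlgn1, Nlgn2 and Nlgn3, Nlgn3 took 23.2 ± 2.0% in contralateral, 21.3 ± 1.3% in ipsilateral and 21.3 ± 0.73% in naive libraries (SD, n = 4 each). Nlgn1 took 5.43 ± 0.34% in contralateral, 5.19 ± 0.86% in ipsilateral and 5.69 ± 0.68% in naive libraries. For each of these genes the ranges of its share overlapped between all groups.

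Nrxn2, the more abundant neurexin here, had 292.5, 263.0, 273.0 and 310.3 CPM in contralateral libraries 1 to 4. In ipsilateral libraries 1 to 4 it had 299.7, 289.8, 295.5 and 330.3 CPM, and in naive libraries 1 to 4 it had 299.3, 286.0, 292.4 and 339.0 CPM. The library numbered 4 was the highest of each group, contralateral 2 and 3 were the lowest of all 12, and the groups overlapped. The group means were 284.7 ± 21.03 in contralateral, 303.8 ± 18.1 in ipsilateral and 304.2 ± 23.9 CPM in the naive group (SD, n = 4 each).

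Nrxn3, a neurexin gene whose product acts at excitatory and inhibitory synapses, had 241.0, 253.5, 210.5 and 195.6 CPM in contralateral libraries 1 to 4. The ipsilateral libraries had 236.9, 248.4, 239.2 and 241.0 CPM, and the naive libraries 183.4, 217.0, 243.9 and 208.8 CPM. The ipsilateral values lay close together, while the contralateral and naive groups spread widely. Their means were 225.1 ± 26.7 in contralateral, 241.4 ± 5.0 in ipsilateral and 213.3 ± 25.0 CPM in the naive group (SD, n = 4 each). Naive 1, 2 and 4 were below the lowest ipsilateral one, and naive 3 was above 3 of the ipsilateral ones.

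Nlgn1, the neuroligin of excitatory synapses, had 59.5, 50.8, 55.2 and 55.1 CPM in contralateral libraries 1 to 4. It had 42.5, 63.2, 56.7 and 70.5 CPM in ipsilateral and 67.0, 52.7, 69.1 and 69.5 CPM in naive libraries. Naive 2 stood apart from the other naive libraries, which were all above every contralateral library, and ipsilateral libraries held both the lowest and the highest value of the 12. The means were 55.1 ± 3.6 in contralateral, 58.2 ± 11.9 in ipsilateral and 64.6 ± 8.0 CPM in the naive group (SD, n = 4 each).

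Nlgn3 varied least. It had 135.2, 122.0, 131.3 and 141.3 CPM in contralateral, 122.8, 143.2, 131.0 and 138.5 CPM in ipsilateral and 138.7, 134.8, 135.9 and 134.6 CPM in naive libraries 1 to 4. The naive values lay within the range of either CCI group. Contralateral 2 and ipsilateral 1 were the lowest libraries of their groups for Nlgn3 and also for Nlgn1. The means were 132.5 ± 8.1 in contralateral, 133.9 ± 8.9 in ipsilateral and 136.0 ± 1.9 CPM in the naive group (SD, n = 4 each).

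**Figure D2:**
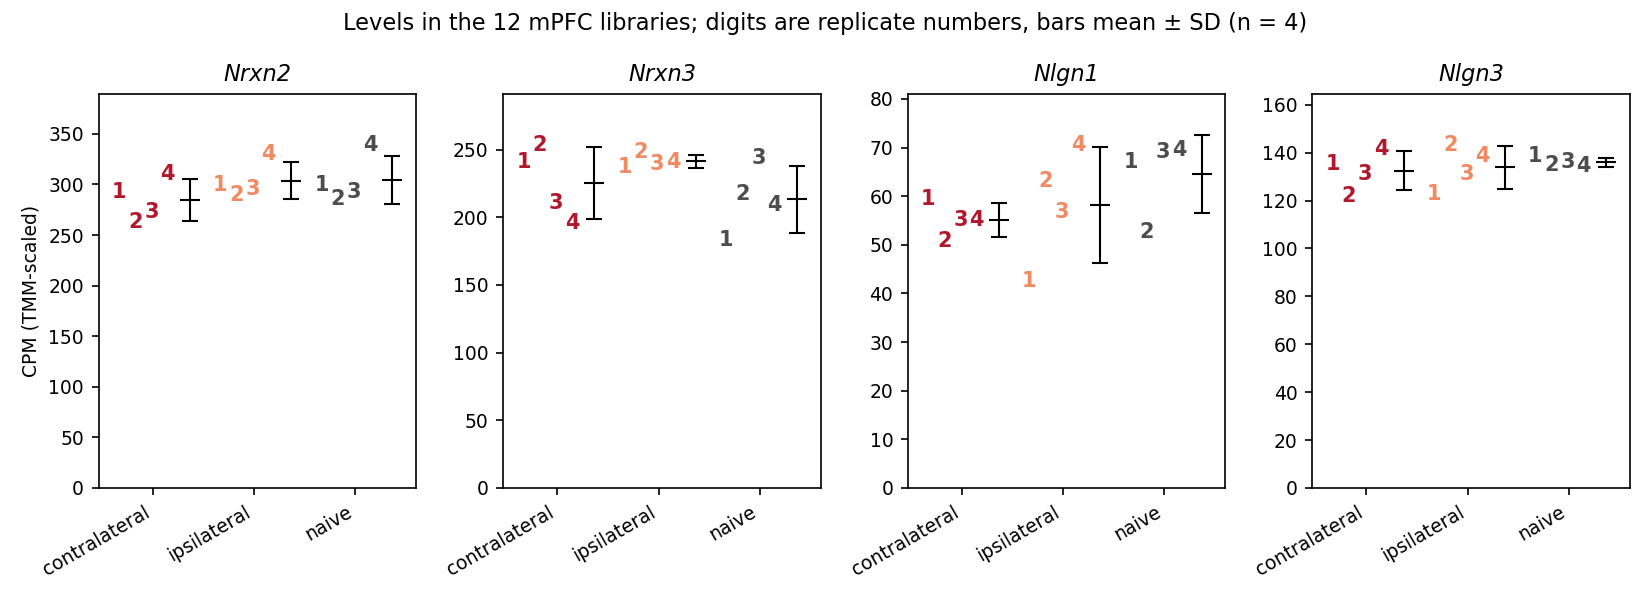
Levels of Nrxn2, Nrxn3, Nlgn1 and Nlgn3 in CPM, scaled by trimmed mean of M values (TMM), in each of the 12 libraries; digits are the library numbers and bars the mean ± SD of each group (n = 4). Groups overlap for every member, ipsilateral Nrxn3 lies between 236.9 and 248.4 CPM, and naive 2 lies at 52.7 CPM below the other naive libraries for Nlgn1.

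The mPFC opposite to the injured nerve was first compared with that of naive mice. None of the members was called: 0 of 4 passed an adjusted p of 0.05 in edgeR's quasi-likelihood test, beside 0% of the 15808 genes tested. Likewise 0 of 4 passed with DESeq2, beside 0.019% of all genes, and with limma voom, beside 0%. At an unadjusted p of 0.05, 0 of 4 members passed in edgeR, beside 3.78% of all genes, and 0 of 4 had groups that did not overlap, beside 2.2%. The neurexins had log2 fold changes of opposite sign, -0.10 (SE 0.069) for Nrxn2 and 0.08 (SE 0.089) for Nrxn3. Both depended on single libraries: Nrxn2 was -0.03 without naive 4 and -0.14 without contralateral 4, and Nrxn3 was 0.02 without naive 1 and 0.15 without naive 3. Nlgn1 had the largest estimate, -0.23 (SE 0.13), and Nlgn3 one of -0.04 (SE 0.059), each with an edgeR adjusted p of 1.00. In percent, the 95% intervals ran from -15.6 to 3.77% for Nrxn2, from -7.53 to 20.5% for Nrxn3, from -30.3 to 4.57% for Nlgn1 and from -10.7 to 6.30% for Nlgn3. Fewer cells of a type and less RNA per cell cannot be told apart in bulk tissue. The p-values set each difference against the spread between these libraries. Left and right libraries of the same number entered the fit of 12 libraries as separate replicates. Its p-values and intervals therefore do not use the pairing read from the numbers.

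Marker lists of neurons and astrocytes leaned to opposite sides in the same comparison. Summed levels overlapped for both lists, as did the astrocyte scores, whereas the excitatory neuron scores did not overlap. How often the scores of a gene list separate in this way was not tested. The excitatory neuron list scored from -0.26 to -0.04 in contralateral and from -0.0013 to 0.12 in naive libraries, and 5 of its 7 genes had negative log2 fold changes. Its summed level was 5086 to 6440 CPM in contralateral and 5850 to 6057 CPM in naive libraries. The astrocyte list had 7 of 8 positive log2 fold changes, and its summed level was 1739 to 4724 CPM in contralateral and 1911 to 3947 CPM in naive libraries. No gene of either list was at 0, none passed the adjusted threshold in edgeR, and their part in the members' values was not tested. All 8 myelin, 7 oligodendrocyte precursor, 6 striatal and 4 mural markers also had positive estimates, while 5 of 8 interneuron markers had negative ones. The medians were 0.30, 0.17, 0.29, 0.17 and -0.05 in that order, against 0.10 for the astrocyte list. The part of these lists was not tested either.

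The partner genes of neurexins and neuroligins were read next, in lists grouped by role. Of the 98 genes on these lists 97 were tested, all but C1ql2, which had 1 to 16 counts. In contralateral against naive libraries 0 of 97 passed the adjusted threshold with edgeR, DESeq2 or limma voom. At an unadjusted p of 0.05, 4 of 97 passed in edgeR, which is 4.12% beside 3.78% of all genes, and all of these had lower estimates in contralateral libraries. They were Clstn3, a calsyntenin that binds neurexins (-0.17, SE 0.076), the secreted neurexin ligands Cbln4 (-0.41, SE 0.17) and Nxph1 (-0.13, SE 0.054), and the postsynaptic scaffold Magi1 (-0.12, SE 0.053), in log2 fold change. The median over the 97 genes was -0.015, against 0.0003 over all genes tested.

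Scaffolds at the neuroligin tail had the lowest list median in this comparison, -0.05 over 17 genes, of which 13 had negative estimates. Presynaptic partners of the neurexin tail split evenly, with 6 positive and 6 negative estimates and a median of 0.0009. Among the splicing regulators, Nova2, an RNA-binding protein of neurons, had a log2 fold change of -0.10 (SE 0.048). All contralateral libraries were below all naive ones, but narrowly, at 141.8 CPM in contralateral 4 and 142.1 CPM in naive 3. Groups did not overlap in 2.2% of all genes. Ptbp1, a repressor of neuronal exons, had a log2 fold change of 0.29 (SE 0.14). The edgeR adjusted p was 1.00 for Nova2 and for Ptbp1.

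**Figure D3:**
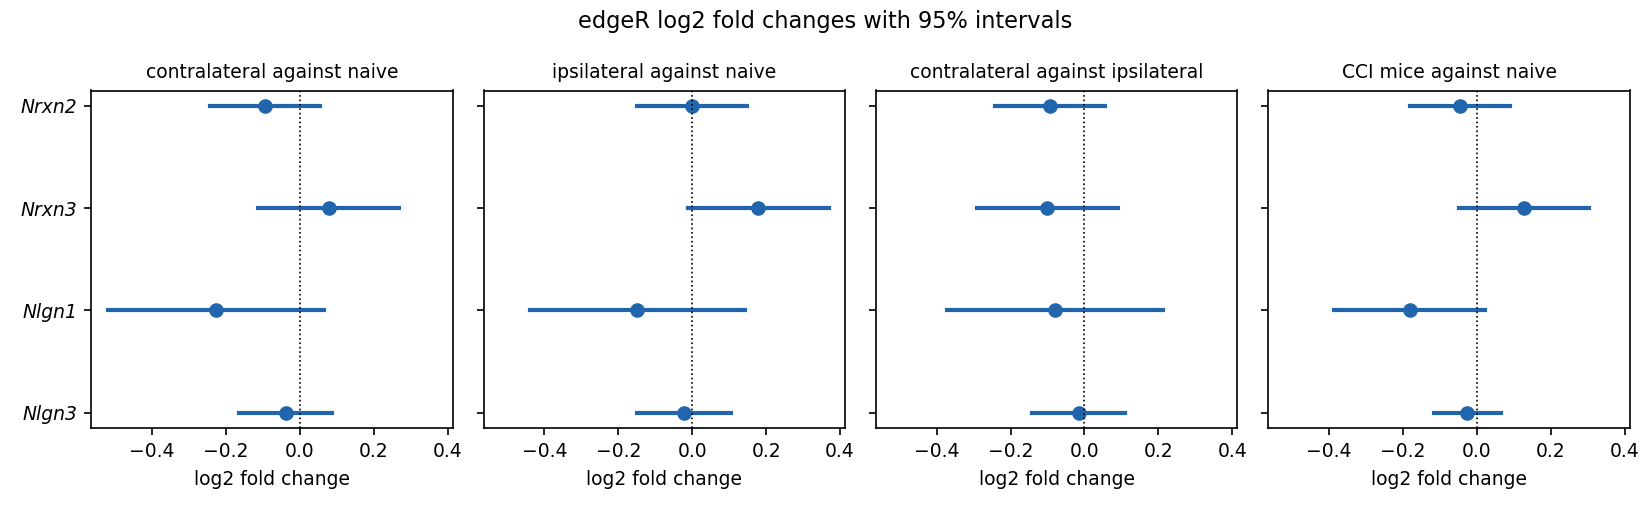
Log2 fold changes of Nrxn2, Nrxn3, Nlgn1 and Nlgn3 from edgeR in contralateral against naive, ipsilateral against naive, contralateral against ipsilateral, and CCI mice with both sides summed against naive mice; bars are 95% intervals. Every interval includes 0, and the widest belong to Nlgn1.

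In the mPFC on the side of the injury, Nrxn3 had the highest estimate of the members and Nlgn1 the lowest. The count of members past an adjusted p of 0.05 was again 0 of 4 in edgeR, beside 0% of all genes. It was 0 of 4 with DESeq2, beside 0.057% of all genes, and with limma voom, beside 0%. At an unadjusted p of 0.05 it was 0 of 4 in edgeR, beside 4.83% of all genes, and 0 of 4 had groups that did not overlap, beside 4.73%. Nrxn3 had a log2 fold change of 0.18 (SE 0.089) against naive libraries, with an edgeR p of 0.064 before and 0.97 after adjustment, and a 95% interval from -0.85 to 29.2%. Without naive 1, the lowest library, its log2 fold change was 0.12, and without naive 3 it was 0.25. Nrxn2 had an estimate of -0.0016 (SE 0.069), with an interval from -9.90 to 10.7%.

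Nlgn1 had a log2 fold change of -0.15 (SE 0.13) in ipsilateral against naive libraries, and Nlgn3 one of -0.02 (SE 0.059), with edgeR adjusted p-values of 0.97 and 0.98. The Nlgn1 estimate rested on ipsilateral 1: without that library it was -0.02. Intervals ran from -26.3 to 10.4% for Nlgn1 and from -9.76 to 7.45% for Nlgn3. The naive libraries are the same as in the contralateral comparison, so these estimates are not independent of those above.

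Of the partner genes, 0 of 97 passed the adjusted threshold in ipsilateral against naive libraries with edgeR, DESeq2 or limma voom. In edgeR, 7 of 97 passed at an unadjusted p of 0.05, which is 7.22% beside 4.83% of all genes, 4 of them higher and 3 lower. Mdga1, which binds neuroligins in the same membrane and blocks their contact with neurexins, had 11.02, 11.9, 12.02 and 13.6 CPM in ipsilateral against 16.9, 16.2, 15.4 and 16.5 CPM in naive libraries. All ipsilateral values lay below all naive values, and the contralateral values of 15.3, 12.6, 14.1 and 15.3 CPM lay below the naive ones as well. Its log2 fold change was -0.42 (SE 0.088) in ipsilateral and -0.18 (SE 0.087) in contralateral against naive libraries, with edgeR adjusted p-values of 0.50 and 1.00. Groups did not overlap in 4.73% and 2.2% of all genes in these comparisons.

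Lrrtm4, a postsynaptic leucine-rich repeat protein that binds neurexins and heparan sulfate proteoglycans, had 15.4, 19.3, 18.0 and 14.0 CPM in ipsilateral against 12.3, 9.77, 10.8 and 8.85 CPM in naive libraries. The groups did not overlap, as in 4.73% of all genes, and the log2 fold change was 0.68 (SE 0.23; edgeR adjusted p = 0.97). In contralateral libraries Lrrtm4 ranged from 9.58 to 21.2 CPM and overlapped both other groups. Adgrl2, a latrophilin, had 111.7, 110.5, 115.6 and 125.3 CPM in ipsilateral against 85.9, 94.0, 113.9 and 87.0 CPM in naive libraries, with overlap through naive 3 and a log2 fold change of 0.28 (SE 0.11; edgeR adjusted p = 0.97).

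Further partner genes at this unadjusted p were the neuroligin-binding thrombospondin gene Thbs1 (-0.76, SE 0.33), at about 1 CPM, the scaffold Magi2 (0.15, SE 0.065), the teneurin Tenm3 (-0.28, SE 0.12) and the adhesion gene Cadm4 (0.18, SE 0.079). Magi2 and Cadm4 were higher in all ipsilateral than in all naive libraries, beside 4.73% of all genes with groups that did not overlap. The ligand list other than neuroligins had 8 of 12 positive estimates and a median of 0.05, and the presynaptic list 8 of 12 and a median of 0.015. None of the splicing regulators passed the unadjusted threshold, Rbfox3 having the smallest p at a log2 fold change of 0.13 (SE 0.078). The median over the 97 genes was 0.017, against -0.0005 over all genes tested.

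Astrocyte markers ran the other way in this comparison, with 6 of 8 negative log2 fold changes, and all 4 mural markers were negative with a median of -0.34. Summed astrocyte markers were 1644 to 3972 CPM in ipsilateral and 1911 to 3947 CPM in naive libraries, and summed mural markers 149.9 to 162.9 CPM in ipsilateral and 162.9 to 178.8 CPM in naive libraries. No gene of the astrocyte and mural lists was at 0. All 7 meningeal and fibroblast markers were negative as well, with a median of -0.56, while all 8 myelin markers were positive, with a median of 0.20. The part of these lists in the members' values was not tested.

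**Figure D4:**
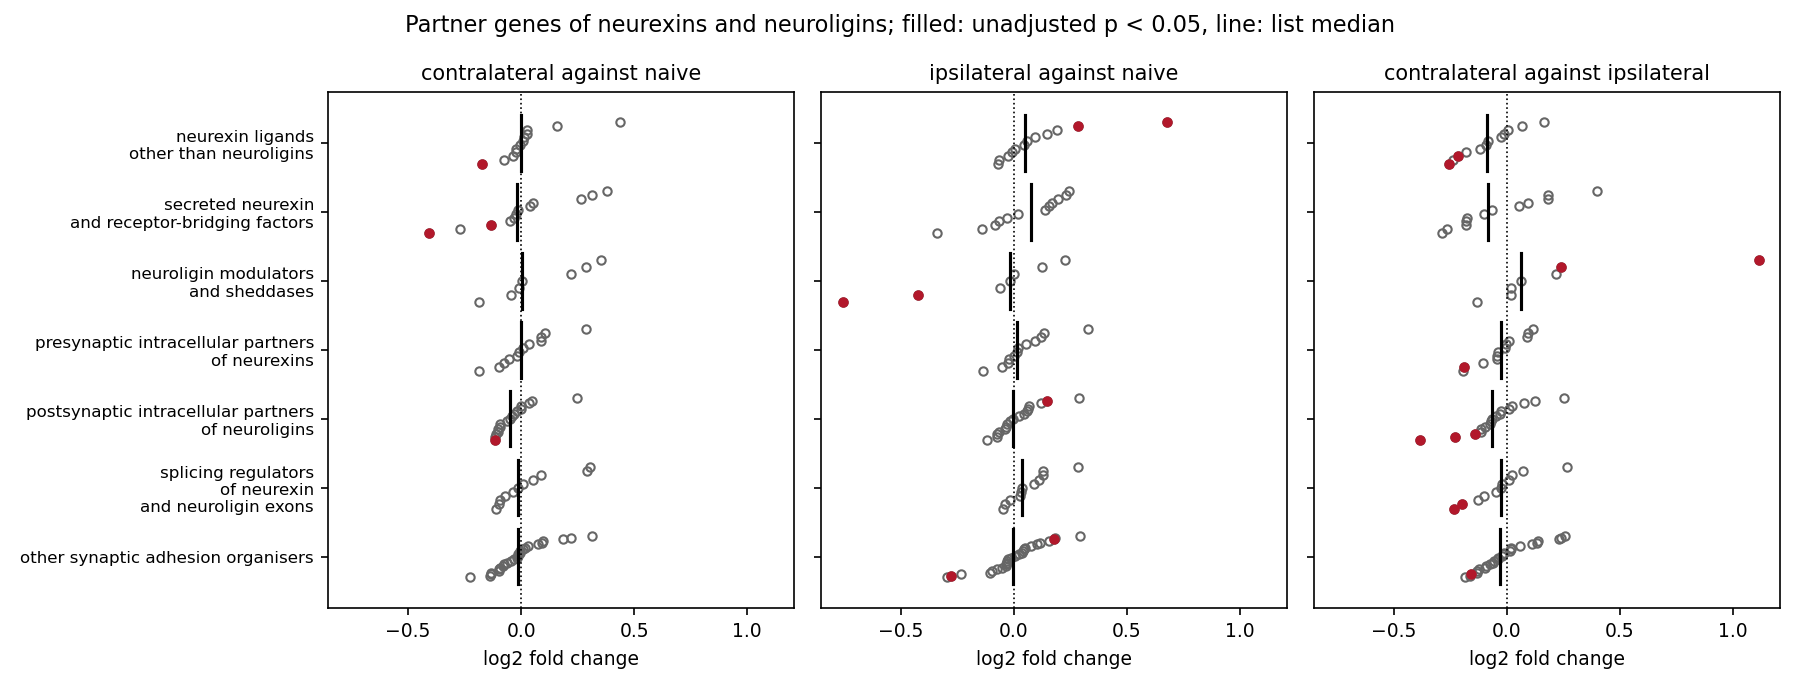
Log2 fold changes of the 97 tested partner genes by list, 1 point per gene, in 3 comparisons; filled points have an unadjusted edgeR p under 0.05 and lines mark list medians. Filled points number 4, 7 and 11 from left to right, and the highest point in contralateral against ipsilateral is Thbs1 at 1.11.

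The right and left mPFC of CCI mice were compared with each other in the same fit. All members had negative estimates, and 0 of 4 passed the adjusted threshold in edgeR, beside 0% of all genes, or with DESeq2 or limma voom, beside 0% with either. At an unadjusted p of 0.05, 0 of 4 members passed in edgeR, beside 8.36% of all genes, and 0 of 4 had groups that did not overlap, beside 2.95%. The log2 fold change of contralateral against ipsilateral was -0.09 (SE 0.069) for Nrxn2, -0.10 (SE 0.089) for Nrxn3, -0.08 (SE 0.13) for Nlgn1 and -0.02 (SE 0.059) for Nlgn3. The edgeR adjusted p-values were 0.71, 0.76, 0.89 and 0.95, in the same order. A negative estimate was found in 48.9% of all genes tested.

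Taken within numbers, each read as a mouse, Nrxn2 was lower on the contralateral side in 4 of 4. Its log2 differences were -0.04, -0.14, -0.11 and -0.09 for mice 1 to 4. Nlgn2 was also lower in 4 of 4, by -0.07, -0.04, -0.21 and -0.40. The share of all genes with the same sign in 4 of 4 was not counted, so these signs are only a description. Nrxn3 differed by 0.02, 0.03, -0.18 and -0.30, so that mice 3 and 4 carried its negative mean. Nlgn1 differed by 0.48, -0.32, -0.04 and -0.36, the widest spread among the members, with mouse 1 opposite to the rest. Contralateral 1 was the library with the striatal score of 1.399, and ipsilateral 1 had the lowest Nlgn1 value. Without both libraries of mouse 1, an alternative chosen after seeing the data, the Nlgn1 log2 fold change was -0.24 (edgeR unadjusted p = 0.046, edgeR adjusted p = 0.81). That was the lowest value when each of the 4 mice was left out in turn. The range was -0.24 to 0.028, and 2 of these 4 fits had a positive sign. Nlgn3 differed by 0.14, -0.23, 0.0031 and 0.03. With the replicate block, Nrxn2 had a log2 fold change of -0.09 with all libraries (edgeR unadjusted p = 0.078, edgeR adjusted p = 0.71). That block also joined naive and CCI mice of the same number, which no label links. With the block and the CCI libraries alone, the log2 fold change of Nrxn2 was -0.10 (edgeR unadjusted p = 0.15, edgeR adjusted p = 0.82). An exact sign-flip permutation test of 4 pairs cannot give a two-sided p below 0.125.

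The partner genes included 11 of 97 at an unadjusted p of 0.05 in edgeR, which is 11.3% beside 8.36% of all genes; 9 were lower and 2 higher on the contralateral side, and 0 of 97 passed after adjustment with edgeR, DESeq2 or limma voom. Homer1, a postsynaptic scaffold with an activity-induced short form, had 89.6, 89.0, 68.7 and 65.3 CPM in contralateral against 109.1, 86.8, 78.0 and 135.0 CPM in ipsilateral libraries, a log2 fold change of -0.39 (SE 0.16). The groups overlapped through ipsilateral 2 and 3.

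Other partner genes lower on the contralateral side at this unadjusted p included Clstn3 (-0.21, SE 0.076), Adgrl2 (-0.26, SE 0.11), the vesicle calcium sensor Syt1 (-0.19, SE 0.079), the neuronal splicing factors Rbfox3 (-0.20, SE 0.078) and Rbfox1 (-0.24, SE 0.11), and Slitrk5 (-0.16, SE 0.074). Thbs1 had an estimate of 1.11 (SE 0.32) from 18 to 48 counts in contralateral against 10 to 24 in ipsilateral libraries, and Mdga1 one of 0.24 (SE 0.088). The list medians were negative for all lists but that of neuroligin modulators and sheddases, at 0.06. The median over the 97 genes was -0.04, against 0.0049 over all genes tested.

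Glial and vascular markers were on the other side of this comparison. All 8 astrocyte, all 8 microglial and all 4 mural markers had positive estimates, with medians of 0.21, 0.23 and 0.47, while 5 of 7 excitatory neuron markers had negative ones, with a median of -0.12. Summed microglial markers were 296.7 to 435.2 CPM in contralateral and 300.3 to 317.7 CPM in ipsilateral libraries, and summed mural markers 154.1 to 209.6 CPM in contralateral and 149.9 to 162.9 CPM in ipsilateral libraries. No marker of these lists was at 0. All 7 oligodendrocyte precursor, all 7 meningeal and fibroblast and 5 of 6 striatal markers were positive too, with medians of 0.19, 0.58 and 0.37. All 8 myelin and all 5 endothelial markers were positive as well, with medians of 0.13 and 0.26. Among interneuron markers 6 of 8 were negative, with a median of -0.10. The part of all these lists in the values of the members and partner genes was not tested.

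Summing both sides of each mouse gave 4 CCI against 4 naive mice, with 16179 genes tested. Members past an adjusted p of 0.05 numbered 0 of 4 in edgeR, beside 0% of all genes. They numbered 0 of 4 with DESeq2, beside 0.196% of all genes, and with limma voom, beside 0%. At an unadjusted p of 0.05, 0 of 4 passed in edgeR, beside 4.2% of all genes, and 0 of 4 had groups that did not overlap, beside 2.71%. The log2 fold change was -0.05 (SE 0.062) for Nrxn2, 0.13 (SE 0.079) for Nrxn3, -0.18 (SE 0.092) for Nlgn1 and -0.03 (SE 0.042) for Nlgn3. Intervals ran from -11.8 to 6.52%, from -3.19 to 23.5%, from -23.4 to 1.56% and from -7.75 to 4.66%, in the same order. Nlgn1 had an edgeR p of 0.076 before and 1.00 after adjustment; without naive 2 its log2 fold change was -0.27, with an edgeR adjusted p of 0.65.

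Of the partner genes, 6 of 97 passed an unadjusted p of 0.05 in edgeR, which is 6.19% beside 4.2% of all genes, and 0 of 97 passed after adjustment with edgeR, DESeq2 or limma voom. Mdga1 (-0.30, SE 0.073), Tenm3 (-0.25, SE 0.084), Cbln4 (-0.38, SE 0.14) and Lin7a (-0.16, SE 0.062), a PDZ protein of the presynaptic CASK complex, had lower estimates in CCI mice. Lrrtm4 (0.57, SE 0.18) and Apba2 (0.11, SE 0.051), which encodes the presynaptic adaptor Mint2, had higher ones. Mdga1 and Tenm3 were lower, and Apba2 higher, in all CCI than in all naive mice, beside 2.71% of all genes with groups that did not overlap. The CCI mice hold the libraries of the comparisons above and the naive mice are shared, so these values are no separate support.

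Nlgn2, the neuroligin gene of inhibitory synapses, had 287.1, 284.5, 258.9 and 250.2 CPM in contralateral, 301.1, 291.7, 300.5 and 329.6 CPM in ipsilateral and 302.0, 309.4, 297.4 and 323.7 CPM in naive libraries. The contralateral values lay below all others. Groups did not overlap in 2.2% of all genes against naive and in 2.95% against ipsilateral libraries. The log2 fold change of Nlgn2 was -0.19 (SE 0.059) against naive libraries, with an edgeR p of 0.0063 before and 1.00 after adjustment. Against ipsilateral libraries it was -0.18 (SE 0.059), with an edgeR p of 0.0091 before and 0.59 after adjustment. Whether Nlgn2 differed from the members in its response was not tested.

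The Nrxn3 to Nrxn2 ratio in FPKM was 0.76 ± 0.13 in contralateral, 0.76 ± 0.050 in ipsilateral and 0.67 ± 0.10 in naive libraries (SD, n = 4 each). The Nlgn1 to Nlgn3 ratio was 0.23 ± 0.012 in contralateral, 0.24 ± 0.038 in ipsilateral and 0.27 ± 0.032 in naive libraries. Ipsilateral 1 had the lowest Nlgn1 to Nlgn3 ratio, 0.195, and naive 4 the highest, 0.291. The groups overlapped in both ratios.

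Over the 8 mice, 6 pairs of members were correlated on log2 CPM, and none passed after Benjamini-Hochberg adjustment. The closest pair was Nlgn1 and Nlgn3, with Pearson's r of 0.64 (exact permutation p = 0.097, adjusted 0.36) and Spearman's rho of 0.55 (exact permutation p = 0.17, adjusted 0.36). Without the 2 mice farthest from the median of Nlgn1, r was 0.58. For Nrxn2 and Nrxn3, r was -0.44 (exact permutation p = 0.31, adjusted 0.36) and rho -0.64 (exact permutation p = 0.096, adjusted 0.36), and r was -0.56 without the 2 farthest mice. Within groups of 4 mice, too few for a test, r of Nlgn1 and Nlgn3 was 0.96 in CCI and 0.25 in naive mice, and that of Nrxn2 and Nrxn3 was -0.71 in CCI and -0.24 in naive mice.

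The genes most like each member over the 12 libraries were taken as those with the highest Pearson correlation of log2 CPM, predicted gene models left out. These correlations describe libraries that share groups and mice. They were picked as the highest among 15808 genes over 12 libraries, which favours high values, and no test was made. Nrxn3 had the closest matches, Aff2 (r = 0.96), Pcm1 (0.94) and Usp29 (0.94). Nlgn1 was matched by Nap1l1 (0.95), Wasf1 (0.91) and the cadherin Cdh10 (0.90). Nlgn3 was matched by the synaptotagmin Syt4 (0.88), Casp8 (0.88) and Klhl7 (0.87), and Nrxn2 by Fosl2 (0.85), AA415398 (0.82) and Gpt2 (0.82). Spearman's rho of these matches was lowest for Casp8, at 0.61 and a mean of 2.69 CPM, and highest for Pcm1, at 0.965. No member was among the 3 closest genes of another.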

How the data were processed

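RNA was taken from mouse mPFC with a commercial kit and libraries were made with an mRNA kit, per the labels' protocols. The deposited table gives raw counts per gene and FPKM for each library, both made by the authors. HISAT2 2.0.4 and GRCm38/mm10 are named per the submitters' processing notes; the counting program is not given in the sources used here. The deposited FPKM were recomputed from the counts and a fixed length per gene and agreed to a relative 3.92e-07 for the members. A second annotated table repeats the same counts and was not used.

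Counts were scaled by TMM and tested in edgeR 4.0.16 (R 4.3.3) with a robust quasi-likelihood fit of all 12 libraries, after filtering low counts by group; a further fit used 8 mice with the sides summed. P-values were adjusted by Benjamini-Hochberg over all genes tested, at 0.05. Alternatives were DESeq2 1.42.0, limma 3.58.1 voom, other scaling, no filter, the compared groups alone, a replicate block and leaving out libraries. Correlations used exact permutation tests (scipy 1.17.1). The scripts were tested on simulated data.

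The members, gene lists and tests were chosen with earlier results of these data known. Named partner genes are, per list and comparison, those of smallest unadjusted p (the 2 smallest where none passed adjustment), and only some of them are printed; the rest were left for length. Nova2 was taken by its Ensembl ID, since its symbol stands on 2 rows. Total counts per library were 16.1 to 20.6 M (mega-counts); counting error covers sampling only. Results for some related genes are not reported here.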

Additional observations from a re-analysis of the deposited data

Results flagged for a closer look

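Nlgn1 in naive 2 stood at 52.7 CPM, apart from 67.0, 69.1 and 69.5 CPM in the other naive libraries. Its gap to the nearest of them was 0.854 of the group's range, above Dixon's 95% critical value for 4 samples. It was the 1 such library among 12 groups examined (4 members in 3 groups), and chance alone picks out about 5% of groups. Without it, the Nlgn1 log2 fold change was -0.31 in contralateral against naive, -0.23 in ipsilateral against naive and -0.27 in CCI against naive mice, with edgeR adjusted p-values of 0.97, 1.00 and 0.65.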

How the results depend on the processing

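No member passed an adjusted p of 0.05 under any alternative run. At an unadjusted p of 0.05, Nlgn1 passed under 3 of 20 alternatives in contralateral against naive (0.036 with the 2 groups alone), 1 of 21 in contralateral against ipsilateral and 2 of 15 in CCI against naive mice (0.0027 without naive 2). Nrxn3 passed under 3 of 20 in ipsilateral against naive (0.030 with the 2 groups alone, 0.043 with no filter) and 1 of 15 in CCI against naive mice (0.014 without naive 3); these p-values are from edgeR. Under settings other than leaving out libraries, 124 of 128 member log2 fold changes kept their sign. Those that turned were near 0: Nrxn2 in ipsilateral against naive libraries was 0.0005 with DESeq2 size factors, 0.0014 with no filter and 0.0005 with DESeq2, and Nlgn3 in contralateral against ipsilateral was 0.0089 with no scaling factors; the cause was not tested.

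With a library or a CCI mouse left out, 157 of 176 kept their sign; leaving out whole mice was chosen after seeing the data. Ranges that crossed 0 were, for Nrxn2, -0.043 to 0.056 in ipsilateral against naive and -0.089 to 0.011 in CCI against naive mice; for Nlgn1, -0.24 to 0.030 in contralateral against ipsilateral; and for Nlgn3, -0.067 to 0.0051 in contralateral against naive, -0.056 to 0.021 in ipsilateral against naive and -0.067 to 0.061 in contralateral against ipsilateral.

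Over all genes, edgeR made no call, with 597 genes in contralateral against naive, 763 in ipsilateral against naive, 1322 in contralateral against ipsilateral and 679 in CCI against naive mice at an unadjusted p of 0.05. DESeq2 called 3, 9, 0 and 31 in that order, and limma voom none. Fits of the 2 compared groups alone called 1 gene in contralateral and 7 in ipsilateral against naive. In CCI against naive mice, 4 were called with no scaling factors and 5 with no filter. Leaving out libraries or mice gave 0 to 3, 0 to 4, 0 to 286 and 0 to 6 calls in the same order; contralateral against ipsilateral reached 159 without contralateral 2 and 286 without both libraries of mouse 2.

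Same-numbered libraries did not deviate together, although a shared number is read as 1 CCI mouse: their deviations correlated between -0.14 and 0.060 for contralateral with ipsilateral, and 0 of 4 pairs matched best with their own number. In fits with naive libraries, the replicate block also joined each naive mouse with the CCI mouse of its number. No label links those mice, so this is no paired design. On either side, 1 of 4 pairs with naive matched best with their own number. With this block, 1 gene was called in each comparison with naive and 0 of 4 members in any. Nrxn2 in contralateral against naive remained -0.10 (SE 0.049, edgeR adjusted p = 1.00).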
